A study of Caenorhabditis elegans with 3 samples.

Results

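Of the 30000 peaks that the authors called from pooled chromatin immunoprecipitation reads, 486 (1.62%) had their summit within 200 bp of a nuclear tRNA gene. These 486 tRNA peaks are described here, together with the 612 nuclear genes of biotype tRNA in the Ensembl annotation of the WBcel235 assembly. The reads came from whole mixed-stage Caenorhabditis elegans embryos, of pooled sexes and with an age label of 4 hours, that were collected by bleaching. The strain, OP651, carries unc-119(tm4063) and the transgene wgIs651, in which bed-3 is joined to TY1, EGFP and 3xFLAG tags beside an unc-119(+) copy. BED-3 is a BED-type zinc finger protein, and its tagged form was precipitated with an antibody against GFP after sonication, with a size range of 200 to 800 bp. There was 1 group of 3 biological replicates, numbered 1, 3 and 4. The labels do not say whether these came from separate cultures, so the spread between replicates may be partly technical. All carry the transgene, and no strain without the tag was analysed here, so a peak is not shown to be a site where BED-3 is bound. Whole embryos mix many cell types, so peaks of different cells cannot be told apart.

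The 3 replicate lists held 26338, 29455 and 30000 peaks, in the order of the replicate numbers, and 417, 438 and 438 of these were tRNA peaks. Signal is the deposited value of the authors' peak caller, and it was compared only within a list, as a value or as a rank from the highest. The authors' optimal list held 589 peaks that passed their test of reproducibility, and these were the highest 589 of the pooled list. Read depth was not analysed here.

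Transfer RNA genes are short and are transcribed by RNA polymerase III from a promoter that lies inside the gene. The A box near the 5′ end and the B box towards the 3′ end are bound by the factor TFIIIC, which places TFIIIB just upstream of the start, and TFIIIB recruits the polymerase. In the worm, tRNA genes are scattered through all chromosomes, many of them inside introns of coding genes. Most occur as families of identical copies, whose products cannot be told apart by sequence.

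The sequences that show the gene models, the identical copies and the exceptions below are given 5′ to 3′ on the transcribed strand, from the RefSeq genome of the WBcel235 assembly. Capitals mark the A box and the B box where a search found them. The B box was searched as GTTCGANNC alone, so variants of these letters are not marked. The A box was searched by its usual consensus in the first 35 bases of the gene. The first is the leucine tRNA gene under the highest tRNA peak, at chrX:13665555-13665673 on the plus strand, which holds an intron between the boxes.
C04A11.t1: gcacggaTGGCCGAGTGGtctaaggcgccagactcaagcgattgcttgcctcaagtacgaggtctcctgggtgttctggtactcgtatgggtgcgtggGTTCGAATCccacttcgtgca
The next is a proline tRNA sequence that 24 genes share, written from the copy at chrX:9467729-9467800 on the minus strand. It holds no exact match to the B box letters.
ZK899.t1: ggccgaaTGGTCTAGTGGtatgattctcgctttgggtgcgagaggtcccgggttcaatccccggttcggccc
Because the genes are identical, copies differ only outside the gene. The 60 bases before that copy, which had a high peak in every replicate, and before 2 copies that had no summit within 200 bp in any list are shown for that reason. They lie at chrX:9467801-9467860 on the minus strand, chrV:3582260-3582319 on the plus strand and chrX:15751360-15751419 on the plus strand. The copies also differ in their wider surroundings. ZK899.t1 lies 93288 bp from the next tRNA gene, whereas T22F3.t1 has another within 1000 bp. ZK678.t3, which like T22F3.t1 had no summit, has no other tRNA gene within 1000 bp. What sets the copies apart was not tested.
ZK899.t1 upstream: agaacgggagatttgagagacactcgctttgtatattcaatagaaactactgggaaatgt
T22F3.t1 upstream: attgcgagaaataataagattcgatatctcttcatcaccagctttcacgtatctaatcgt
ZK678.t3 upstream: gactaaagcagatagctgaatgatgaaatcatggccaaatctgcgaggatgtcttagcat
An annotated arginine tRNA gene in which no A box was found, at chrX:11806588-11806660 on the minus strand, stands for the 17 such genes.
C34E11.t1: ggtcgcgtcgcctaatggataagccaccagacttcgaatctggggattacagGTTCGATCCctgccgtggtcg
The selenocysteine tRNA gene, at chrIV:658181-658266 on the plus strand, also has no match to the A box.
K11H12.t1: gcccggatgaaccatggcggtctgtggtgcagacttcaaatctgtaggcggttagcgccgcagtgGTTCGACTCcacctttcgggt
The last 2 are tRNA pseudogenes that had high peaks, at chrIV:8927200-8927273 and chrII:7001627-7001698, both on the plus strand. Only the latter holds matches to both boxes.
D1046.t1: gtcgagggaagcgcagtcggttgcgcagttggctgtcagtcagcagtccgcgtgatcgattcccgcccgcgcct
C52E12.t1: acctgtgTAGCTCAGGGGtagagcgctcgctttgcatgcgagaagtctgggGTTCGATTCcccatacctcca

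Peaks at tRNA genes stood near the top of every list. Of the 486 tRNA peaks, 193 were optimal (39.7%, 95% exact Clopper-Pearson interval 35.3 to 44.2), where 1.96% of all pooled peaks were. They made up 32.8% of the optimal list. The interval, like others given below, covers counting error only. Among the 1000 highest peaks of a list, which are 3.8%, 3.4% and 3.33% of all peaks of replicates 1, 3 and 4, tRNA peaks numbered 206, 180 and 215 in that order. Their share was 20% ± 1.82 (SD, n = 3). In the pooled list 34 of the 100 highest peaks and 172 of the 500 highest were tRNA peaks. The decline after that was steep in each replicate. Replicate 1 had 94 tRNA peaks in its first 250 ranks and 8 in ranks 1001 to 1250, replicate 3 had 74 and 11, and replicate 4 had 97 and 14. The median signal of the tRNA peaks was 91.2 in the pooled list, beside 39.2 for all pooled peaks, and their median ranks were 1056, 2014 and 1069 in replicates 1, 3 and 4.

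**Figure D1:**
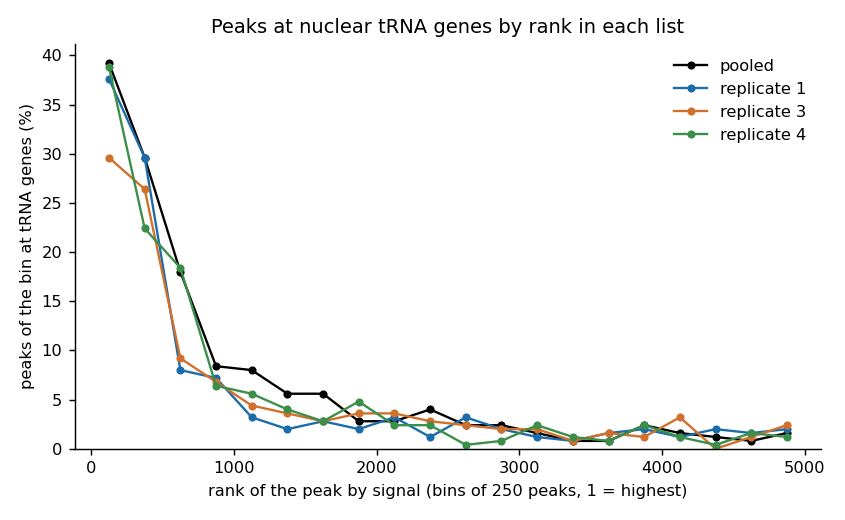
Share of peaks whose summit lies within 200 bp of a nuclear tRNA gene (%, vertical axis), in bins of 250 peaks ordered by signal from the highest (horizontal axis), for the pooled list and the 3 replicate lists. In the first bin the share is 37.6%, 29.6% and 38.8% in replicates 1, 3 and 4, and by ranks 1001 to 1250 it is 3.2%, 4.4% and 5.6%.

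The highest tRNA peak lay over C04A11.t1, a leucine tRNA gene with an intron, and had a pooled signal of 827.7 at rank 18. The replicate lists gave it signals of 236.9, 176.1 and 410.2 at ranks 17, 25 and 20, in the order of the replicate numbers. The next was a peak shared by the alanine tRNA genes F15G9.t1 and F15G9.t2, which lie 87 bp apart inside him-4, with a pooled signal of 615.9 and ranks 34, 27 and 44. It was followed by T21B4.t1, an isoleucine tRNA gene inside col-85, with 606.1 and ranks 35, 52 and 31. The asparagine tRNA gene F41D9.t3 (pooled signal 579.4), the lysine tRNA gene W03G11.t1 (572.2) and the isoleucine tRNA gene C42D8.t1 (566.4) came after these. In all 15 highest tRNA peaks the rank stayed between 17 and 89 in every replicate, so these were high in each list.

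The genes under those 15 peaks were of 11 amino acid types. The remaining 9 were C37A2.t1 (cysteine, inside cye-1, pooled signal 543.8), F29C4.t1 (arginine, 529.9), sup-5 (tryptophan, 527.4), M02F4.t1 (glycine, 526.6), R04D3.t2 (valine, 522.1), C28G1.t1 (glutamate, 513.8), F17H10.t1 (glycine, 499.0), T07H6.t2 (alanine, 496.0) and C33G3.t2 (lysine, 490.9). Of the 15, 11 lay on X and 8 lay inside a coding gene, and at 13 of them the summit fell within the tRNA gene itself. For comparison, X held 276 of the 612 tRNA genes, 209 of the 486 tRNA peaks and 89 of the 193 optimal ones. Inside a coding gene lay 290 of the 612 genes. The peak named for M02F4.t1 lay between it and the glutamate tRNA gene M02F4.t2, 117 bp away, and counts for both.

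At the lower end, the optimal list stopped at a signal of 122.5. The 3 tRNA peaks just inside were at R04F11.t1 (asparagine, 123.7), C27A2.t1 (isoleucine, 123.6) and T04D3.t2 (glycine, 123.2). Just outside were ZK822.t1 (leucine, with an intron, 122.0), K01A12.t2 (cysteine, 121.9) and F43C9.t1 (lysine, 121.9). Ranks of these 6 varied widely between replicates. C27A2.t1 ranked 2616 in replicate 1 and 777 in replicate 4 and had no summit in replicate 3, while F43C9.t1, outside the list, ranked 1033, 475 and 1386.

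Most optimal tRNA peaks recurred. For this, a replicate had to hold, among its 1000 highest peaks, a summit no more than 100 bp away. Replicate 1 held 171 of the 193 optimal tRNA peaks in this sense, replicate 3 held 145 and replicate 4 held 183, and 127 were found in every replicate (65.8%, interval 58.6 to 72.5). Of the 377 other nuclear optimal peaks, 198 were (52.5%, interval 47.3 to 57.7). The tRNA peaks and the other peaks were not matched for rank. In the pooled list, tRNA peaks made up 39.2% of ranks 1 to 250 and 29.6% of ranks 251 to 500. Being among the 1000 highest of a replicate depends on rank, and the part of rank in this difference was not tested. The pooled list contains the reads of the replicates, so the counts of peaks found in the replicates are not independent of it. The optimal list was also chosen with the lists of replicates 3 and 4, so a match there follows in part from that choice. These counts are therefore a description and no test of reproducibility. Replicate 3 set the number: without it, 84.5% of the optimal tRNA peaks were found in both remaining replicates. Across the tRNA peaks matched in a pair of lists, Spearman's rho of signal was 0.76 for replicates 1 and 3 (261 peaks), 0.84 for replicates 1 and 4 (293) and 0.77 for replicates 3 and 4 (276). These coefficients are descriptions, since the lists share a control alignment and neighbouring peaks share fragments.

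Of the 3 tRNA peaks whose ranks differed most between replicates, 2 were second summits of their gene. The second summit at C04A11.t1, 231 bp from the gene's first base, had ranks of 21644, 151 and 373 in the order of the replicates. A second summit at C05G6.t1, a valine tRNA gene, ranked 18969, 250 and 1092. In replicate 3 the first pooled summit of C05G6.t1 had no summit within 100 bp, so rank 250 was the gene's highest peak in that list. The last case was a main summit: the peak at C27A12.t1, a leucine tRNA gene, had ranks of 299, 22417 and 1169. For each of these 3, a single replicate stood far below the other two.

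The median summit of the optimal tRNA peaks lay on the 5′ part of the gene. Counting the first base of the gene as 0, the median summit of the 193 optimal tRNA peaks was at 22 bp, the middle part of them lay between 10 and 42 bp (quartiles), and 147 (76.2%) were inside the gene. The genes have a median length of 72 bp, and where the boxes were found, the A box began at a median of 7 bp and the B box at 52 bp. In the lists of replicates 1, 3 and 4, the median summit of the tRNA peaks among the 1000 highest was at 16.5, 34.5 and 28.0 bp in that order (26.3 bp ± 9.12, SD, n = 3). Each replicate median lay between the starts of the 2 boxes. Replicate 3 was the most dispersed, with 45.0% of these summits inside the gene, beside 66.5% in replicate 1 and 69.8% in replicate 4. Of its 180 such summits, 54 lay downstream of the gene. Over all 486 pooled tRNA peaks the median summit was at 33 bp, near the middle of a gene of median length.

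Weaker tRNA peaks were placed differently. Of the 293 that were not optimal, 105 (35.8%) had their summit inside the gene, and their quartiles ran from 18 bp upstream, at -18.0, to 172 bp. Side summits were among them: 104 genes had a second pooled summit within 200 bp, and 2 of those 104 second summits were inside the gene, whereas 250 of the 382 first summits were (65.4%). The second summit lay a median of 202 bp from the first. In no list did 2 nuclear summits lie closer than 199 bp, so neighbouring summits are kept apart by the lists themselves. Their median signal was 51.9, beside 207 for the first summits of the same genes.

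**Figure D2:**
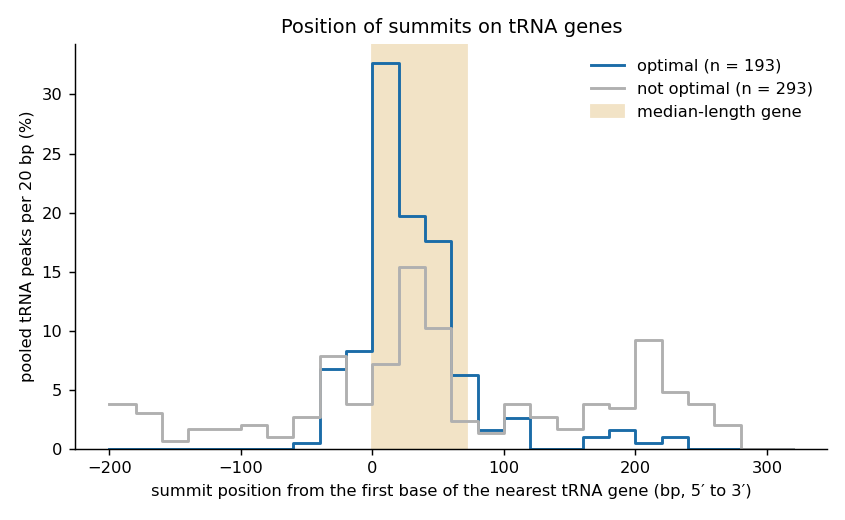
Position of the summit (bp, horizontal axis) from the first base of the nearest tRNA gene, in the direction of transcription, as a share of pooled tRNA peaks per 20 bp (%, vertical axis), for 193 optimal and 293 other tRNA peaks. The shaded band is a gene of the median length of 72 bp. Optimal summits gather inside the gene with a median of 22 bp, and the other summits spread further, with a second group about 200 bp downstream. A smaller rise lies at the upstream edge, with 11 other summits from -200 to -180 bp, beside 27 from 200 to 220 bp. Summits were taken up to 200 bp before the gene and 200 bp after its end, which cuts the upstream side earlier.

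The promoter letters were frequent under these summits. In windows of 50 bp on each side of the summit, read on both strands, the A box consensus was present in 88.1% of the optimal tRNA peaks, 58.0% of the other tRNA peaks and 27.1% of the remaining 29494 nuclear peaks. The B box letters were present in 45.6%, 24.9% and 0.902%. The 2 searches share no bases in a match, but the A box consensus is short, which gives its high level elsewhere. Both are parts of a tRNA gene, so their presence follows from the choice of peaks and is a description.

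Seen from the genes, the tRNA genes carried high peaks far more often than other genes. A gene was counted as called in a replicate when a summit within 200 bp was among the 1000 highest of that list. Replicates 1, 3 and 4 called 218 (35.6%), 174 (28.4%) and 216 (35.3%) of the 612 tRNA genes, a mean of 33.1% ± 4.06 (SD, n = 3). Of the other 46278 nuclear genes, 2.26%, 2.13% and 2.26% were called in these lists. By the optimal list, 201 tRNA genes (32.8%) had a summit within 200 bp, beside 1.52% of the other nuclear genes. The same genes tended to recur: 145 were called in every replicate, 55 in 2, 63 in 1 and 349 in none. A summit anywhere in the pooled list was present at 406.

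Each of the 20 standard amino acid types had called genes in every replicate. Cysteine tRNA genes had the highest share, 51.3% ± 16.0 (SD, n = 3) of 13 genes, followed by glutamate with 47.2% ± 3.73 of 41 and methionine with 41.7% ± 7.64 of 20. Alanine followed with 41.2% ± 7.78 of 34. The lowest were histidine with 18.3% ± 7.64 of 20, glutamine with 22.2% ± 3.70 of 27 and valine with 25.8% ± 3.23 of 31. Glutamate was above the mean of all tRNA genes in each replicate (51.2%, 43.9% and 46.3%), and histidine and glutamine were below it in each. Neighbours in this order did not differ beyond their spread. Cysteine rested on 9 of 13 genes in replicate 4 and on 6 and 5 in the other two, so its place is uncertain.

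**Figure D3:**
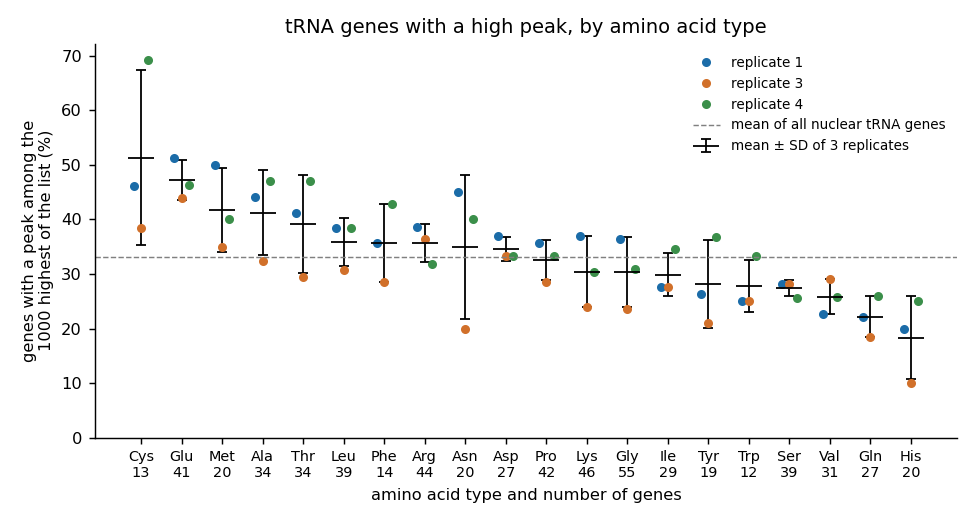
Share of the tRNA genes of each amino acid type with a peak among the 1000 highest of a replicate list (%, vertical axis); the number of genes stands under each type. Points are the 3 replicates, bars the mean ± SD, and the dashed line is the mean of all nuclear tRNA genes, 33.1%. Cysteine and glutamate lie highest and histidine lowest, and most types overlap.

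The highest gene of each type gives the range within types. Beyond those already named, these were F38G1.t2 (aspartate, inside egl-17, pooled signal 483.5), C02B4.t2 (tyrosine, inside nhr-17, 472.5), a peak shared by the serine genes C53C7.t1 and C53C7.t2 (470.0), ZK899.t1 (proline, 465.5) and C02F12.t1 (methionine, 461.3). The serine summit lay 33 bp from C53C7.t2 and 98 bp from C53C7.t1. The highest genes also include C06G1.t1 (histidine, 452.2), R01H5.t1 (threonine, 451.6), T28B4.t1 (phenylalanine, 404.5) and R04A9.t1 (glutamine, 321.3). Each of the 20 standard types therefore had a gene with a pooled signal of 321.3 or more. The exceptions were the gene for selenocysteine, the amino acid placed at certain UGA codons, and the genes to which RefSeq gives no amino acid. K11H12.t1, the selenocysteine tRNA gene, had a pooled signal of 58.91 and ranked 4146, 19293 and 12609 in replicates 1, 3 and 4, and its pooled summit lay 118 bp from the gene. Of the 5 genes with no amino acid given, none was called in any replicate, and the highest, DY3.t2, had a pooled signal of 65.19.

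Genes with an intron were called as often as those without. Introns are removed from some tRNA precursors by a dedicated endonuclease, and 29 genes have one: all 19 tyrosine genes, 7 leucine genes and 3 isoleucine genes. The share called was 33.3% ± 7.18 with an intron and 33.1% ± 4.03 without, a difference of 0.229 points ± 5.68 (SD, n = 3; exact two-sided sign-flip permutation p = 1.00). With 3 replicates this test cannot give a p below 0.25. The 3 highest of these genes were C04A11.t1, C02B4.t2 and F57F5.t1, an isoleucine tRNA gene with a pooled signal of 461.9 and ranks of 39, 96 and 77.

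Genes with identical copies were called more often than genes whose sequence no other tRNA gene has. The 612 genes have 200 distinct sequences, and 469 genes share 57 of them. Of these 469, 37.3% ± 4.62 were called, and of the 143 unrepeated genes 19.3% ± 2.25 were, a difference of 18 points ± 2.41 with the same sign in 3 of 3 replicates (exact two-sided sign-flip permutation p = 0.25, adjusted p = 0.45 over 9 contrasts, p = 0.25 being the smallest possible). The share did not grow with the number of copies beyond that step: it was 37.8% ± 5.59 for 2 to 5 copies, 36.3% ± 3.79 for 6 to 10, 38.5% ± 3.92 for 11 to 20 and 35.7% ± 6.49 above that. Counted per distinct sequence, with a sequence called if any copy was, the difference was 60.8 points, a count in which a sequence with many copies has more chances to be called by construction.

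The sources used here do not give the read length or say how the authors placed reads that match several copies, so a word of 36 bases was assumed. Of all 612 genes, 473 contain no 36-base word that occurs only at that place in the genome, but in 499 genes every 36-base word of the 150 bp on both sides is unique. Among those 499, 38.9% ± 4.40 of repeated and 21.1% ± 2.06 of unrepeated genes were called. Of the optimal tRNA peaks, 168 were nearest a gene with no unique word, and 129 of these had their summit inside it. The part of read placement in these values was not tested.

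Identical genes were not alike. There were 20 families of at least 10 identical copies, with 317 genes. In each of the 20, at least 1 copy was called in every replicate and at least 1 was called in none. Over all 20 families, 81 of the 317 copies were called in every replicate and 157 in none, beside 145 and 349 of all 612 tRNA genes. A family of many copies has more chances to hold both kinds by construction. The order of the copies within a family was similar between replicates, with Spearman's rho from 0.24 to 0.96 and a median of 0.79 over 60 pairs of lists, a description with no test. In the largest family, 29 glycine tRNA genes, M02F4.t1 had a pooled signal of 526.6 and ranks of 47, 34 and 66, whereas C12C8.t2 had 38.08, ranked 4942 and 12032 in replicates 1 and 4 and had no summit in replicate 3. That summit lay 92 bp from C12C8.t2 and nearer to C12C8.t5. In the proline family printed above, ZK899.t1 ranked 101, 66 and 56, and T22F3.t1 and ZK678.t3 had no summit in any list. Of its 24 copies, 4 were called in every replicate and 13 in none. A glutamate family of 15 had the highest share of copies called in every replicate, with 8 such copies and 4 called in none.

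**Figure D4:**
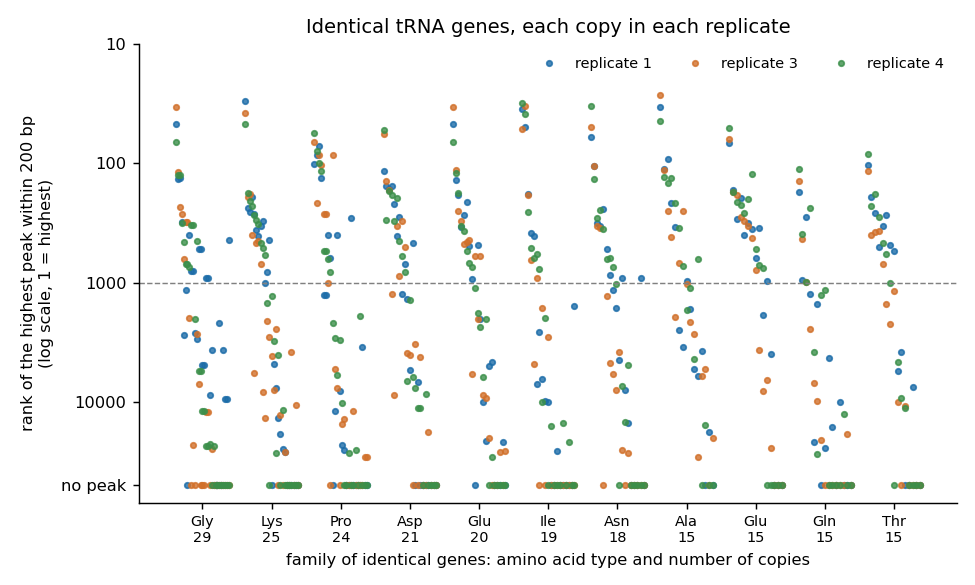
Rank of the highest peak within 200 bp of each gene copy (log scale, vertical axis, highest peaks at the top) in the 3 replicates, for the 11 families of 15 or more identical tRNA genes (horizontal axis, with amino acid type and number of copies). Copies are ordered within a family by their median rank, the dashed line is rank 1000, and copies with no peak lie at the bottom. Each family runs from copies in the first ranks to copies with no peak.

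The tryptophan family shows the same with genes known from genetics. In the worm, mutations of the anticodon turn several of these genes into amber suppressors, which read the UAG stop codon, and the sup genes were found in that way. Of 12 tryptophan genes, 10 are identical. Among them sup-5 (inside fli-1) had the highest pooled signal, 527.4, with ranks of 62, 89 and 40 in replicates 1, 3 and 4. The peak at sup-7 had 278.2 and ranks of 144, 207 and 165. That at sup-28 (inside trk-1) had 169.6 and ranks of 580, 514 and 466. These 3 were called in every replicate.

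The other identical copies were lower. The gene sup-24 was in the optimal list with 137.6, but its ranks of 1725, 9187 and 363 put it among the 1000 highest in replicate 4 alone. At sup-21 a weak pooled peak of 37.71 had no counterpart in any replicate. At sup-29 a summit was present in replicate 3 alone, at rank 6113, and sup-33, 857 bp from sup-28 in the same host gene, had no summit in any list. The peak at rtw-5, a tryptophan gene of another sequence, had 47.45 and was called in no replicate. The identical copies rtw-6, Y4C6B.t2 and Y95B8A.t1 were neither optimal nor called in any replicate, and neither was F49C5.t1, which has another sequence. So 4 of the 10 identical genes were optimal and 6 were not, and over all 12 tryptophan genes the share was 33.3%, beside 32.8% of all tRNA genes.

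Genes whose own sequence is fully unique were not called. In 25 genes every 36-base word occurs at 1 place in the genome, and in none of the 3 replicates was any of them called. A summit in the pooled list was present at 8 of the 25, beside 406 of all 612 tRNA genes. None was optimal, with an exact interval that reaches 13.7%. The 25 include K11H12.t1 and DY3.t2, named above, and 5 of them have no match to the A box consensus. Of the 114 genes with some unique words 23.4% ± 2.82 were called, and of the 473 with none 37.2% ± 4.58. Genes without a match to the A box consensus were also rarely called. The share was 1.96% ± 3.4 of 17, beside 34% ± 4.12 of the 595 with a match. A variant of the consensus counted as no match, so these classes are no comparison of genes with and without an A box. Of those 17, 15 have an unrepeated sequence. Among unrepeated genes, 2.22% ± 3.85 of the 15 without the match and 21.4% ± 2.26 of the 128 with it were called. The low values rest on few genes: 1 gene without the match, T04D3.t1, was called, in replicate 1 alone. Presence of an exact match to the B box letters made no difference beyond the spread, with 33.6% ± 4.03 of 441 genes and 32.0% ± 4.73 of 171 without it. The search took these letters alone, so a gene with a variant of them counted as without. In the 12 tryptophan genes the match began at 24 bp, beside a median of 52 bp over all genes with a match. These 2 classes are therefore no comparison of genes with and without a B box.

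Genes in clusters were called less often than single genes. A gene was taken as clustered when another tRNA gene lay within 1000 bp. Of 236 clustered genes 24.2% ± 3.36 were called and of 376 single genes 38.7% ± 4.53, a difference of -14.6 points ± 1.45, with the same sign in 3 of 3 replicates (exact two-sided sign-flip permutation p = 0.25, adjusted p = 0.45 over 9 contrasts). The mean share was higher with distance to the next tRNA gene, from 19.5% ± 2.34 at 101 to 500 bp, through 21.7% ± 3.15, 31.8% ± 3.24 and 36.8% ± 4.56, to 42.3% ± 5.07 above 20000 bp. The 16 genes within 100 bp of another stood apart with 79.2% ± 14.4. They form 8 pairs, and 7, 5 and 7 of the pairs had a called gene in replicates 1, 3 and 4. Both genes of a called pair had the same highest pooled summit. Examples were T23F1.t1 and T23F1.t2 (lysine and proline, 67 bp apart, pooled signal 379.2) and Y22D7AL.t3 and Y22D7AL.t4 (methionine and glutamate, 49 bp apart, 241.6).

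The lower share of clustered genes was present among repeated genes (22.5% ± 2.84 at 101 to 1000 bp and 45.0% ± 5.45 beyond) and among unrepeated ones (9.40% ± 1.48 and 21.3% ± 2.08). It was also present among genes with unique flanks, with 20.6% ± 2.10 and 42.0% ± 4.76. In 15 of the 20 large families, the single copies were called more often than the clustered copies of the same sequence. Counted per cluster instead of per gene, a called gene was present at 38.7% ± 4.53 of single loci, in 38% ± 5.78 of 78 pairs and in 40% ± 5.00 of 20 clusters of 3 to 5 genes. A cluster of several genes has more chances to hold a called gene by construction, so these shares are no comparison of genes. Counted per distinct sequence, the difference was -4.78 points ± 2.69.

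**Figure D5:**
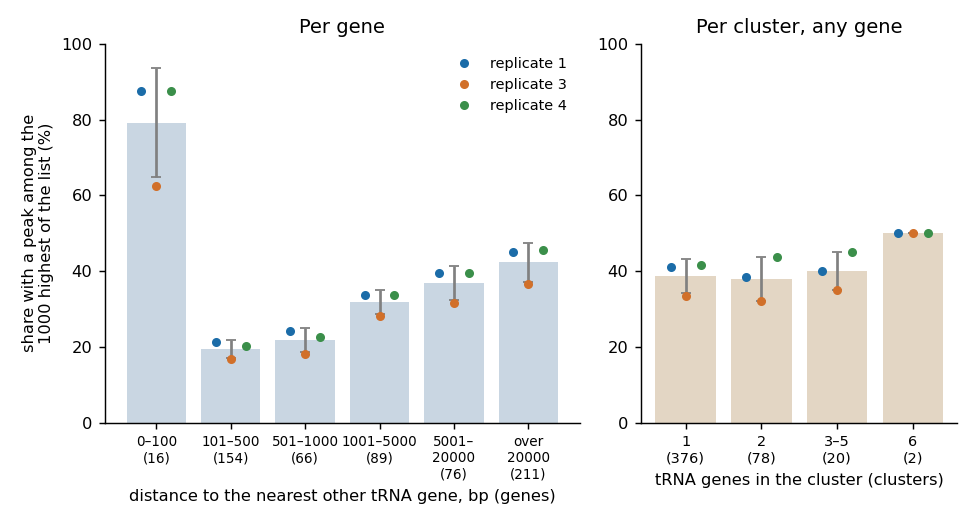
Left, share of tRNA genes with a peak among the 1000 highest of a replicate list (%, vertical axis) by distance to the nearest other tRNA gene (bp, number of genes in brackets); right, share of clusters with any such gene by number of genes in the cluster (number of clusters in brackets). Bars are the mean of 3 replicates, lines the SD and points the replicates. Apart from the pairs within 100 bp, the mean share per gene is higher with distance, from 19.5% to 42.3%. The share of clusters with any called gene, which grows with the number of genes by construction, is between 38% and 40% for clusters of up to 5 genes.

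The 2 densest clusters, of 6 genes each on X, differed. In the first, at 8154445 to 8156707, the methionine gene F22F1.t6 had a pooled signal of 422.2 and ranks of 77, 55 and 100. F22F1.t2 (serine) and F22F1.t3 (aspartate) shared a weaker peak of 93.85, called in replicate 1 alone. Its pooled summit lay inside F22F1.t3 and 197 bp from F22F1.t2. F22F1.t4, F22F1.t5 and F22F1.t7 had no summit in any list. The second cluster, at 14135045 to 14137010, holds 6 identical histidine genes, F28H6.t2 to F28H6.t7, and none was called in any replicate. The highest value there was 52.13 at F28H6.t5. The flanks of this cluster are largely repeated: the share of unique 36-base words in the 150 bp on both sides was 0% at F28H6.t3 and F28H6.t4, 6.09% at F28H6.t6, 50% at F28H6.t7, 55.7% at F28H6.t5 and 100% at F28H6.t2, whereas in the first cluster it was 78.7% at F22F1.t4 and 100% at the other 5. Of the 7 tRNA genes with under 50% unique flanks, none was called in any replicate. These 6 histidine genes count in the share of that type, and the part of read placement was not tested.

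Host gene, chromosome arm and chromosome X made no difference beyond the replicate spread. Of the 290 tRNA genes inside a coding gene, 283 within its introns, 33.1% ± 5.74 were called, and of the 322 others 33.1% ± 2.64. The strand relative to the host gene gave 33.7% ± 6.15 for the 167 on the same strand and 32.2% ± 5.41 for the 123 on the opposite strand. In the central part of the chromosomes, from 33.3% to 66.7% of their length, 34.3% ± 5.32 of 217 genes were called, and on the arms outside it 32.5% ± 3.37 of 395. Of the 276 genes on X 33.9% ± 2.57 were called, and of the 336 on autosomes 32.4% ± 5.43. The exact sign-flip permutation p of these 3 contrasts was 1.00, 0.50 and 0.75. Among the autosomes the share ran from 24.4% ± 5.59 on V (78 genes) to 42.2% ± 7.16 on III (64 genes), and V was below III in each replicate.

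Compared with other small RNA genes, tRNA genes were called more often. Small nucleolar RNAs guide the modification of ribosomal RNA, and 16.4% ± 0.929 of 346 snoRNA genes were called. Small nuclear RNAs are parts of the spliceosome, and 8.01% ± 1.18 of 129 snRNA genes were. The difference from tRNA genes was 16.7 points ± 4.51 for snoRNA and 25.1 points ± 3.22 for snRNA genes, with the same sign in 3 of 3 replicates (exact two-sided sign-flip permutation p = 0.25, adjusted p = 0.45 for each). The lists hold several copies of some of these genes, whose reads may not be placed uniquely.

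Annotated tRNA pseudogenes, remnants of tRNA genes, were mostly without peaks. Of 209, 1.75% ± 0.276 were called, which is 31.4 points ± 3.78 less than tRNA genes (exact two-sided sign-flip permutation p = 0.25, adjusted p = 0.45) and near the 2.26%, 2.13% and 2.26% of other genes. Their promoter letters were nearly as frequent: 94.7% had the A box and 68.9% the B box, beside 97.2% and 72.1% of tRNA genes. Every 36-base word was unique in 126 of the pseudogenes, of which 3 were called in any replicate, beside 25 such tRNA genes with none.

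Only 5 tRNA pseudogenes were called in any replicate, and they are named here because they were so few, after their values were seen. D1046.t1, inside cfim-2, had a pooled signal of 601.4 and ranks of 33, 49 and 29 in replicates 1, 3 and 4, as high as the highest tRNA genes. C52E12.t1, inside unc-104, had 303.1 and ranks of 164, 179 and 140. T08B2.t1, inside fars-1, had 257.7 and ranks of 221, 216 and 171, and F19H8.t1 and Y94H6A.t1 had 104.1 and 120.3. None lies within 500 bp of a tRNA gene. D1046.t1 shares its last 9 bases with the start of an annotated snoRNA gene, D1046.6, and T08B2.t1 and F19H8.t1 likewise overlap the snoRNA genes T08B2.13 and F19H8.6 by 4 and 8 bases. Annotated non-coding RNA genes of another biotype also overlap D1046.t1 (D1046.11) and T08B2.t1 (T08B2.14). Of the 209 pseudogenes, 4 overlap a snoRNA gene on the same strand, and 3 of these 4 were called in a replicate, beside 2 of the other 205. Of the 612 tRNA genes, 0 overlap a snoRNA gene on the same strand.

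A list of 25 genes held subunits and factors of the polymerase III machinery and the RNA genes rpr-1 and mrpr-1, and was made with earlier results of these data known. Of the 25, 3 (12%) had an optimal summit between 1000 bp before and 200 bp after their start, beside 2.05% of all nuclear genes. They were rpr-1, the RNA subunit of RNase P that cuts tRNA precursors (pooled signal 641.7, ranks 27, 40 and 26), mrpr-1, the related RNA of RNase MRP (394, ranks 96, 109 and 88), and rpac-19, a subunit shared by polymerases I and III (188.4, ranks 254, 334 and 426). The first 2 are non-coding RNA genes that the polymerase transcribes in humans. The subunit genes rpc-1 and rpc-2, the TFIIIC genes tftc-1, tftc-3 and tftc-5, the TFIIIB gene brf-1 and the repressor gene mafr-1 had no optimal summit in this window. With any pooled summit there were 11 of the 25 (44%), beside 29.6% of all nuclear genes. Of the 23 genes on the list that encode proteins, rpac-19 alone had an optimal summit.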

How the data were processed

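Per the labels, embryo chromatin was precipitated in 3 biological replicates of 1 group, and peaks are on ce11, which is the WBcel235 assembly. Per the deposited file listing, each replicate list was called from its own alignments and 1 shared control alignment, the pooled list from replicates 1, 3 and 4 together, and the optimal list by the irreproducible discovery rate, from the pooled list and the lists of replicates 3 and 4. The aligner, the caller and the treatment of reads that match several places are not stated in the sources used here. The signal of a peak is the authors' deposited value, ranked within a list only. The deposited −log10 q was not used for ranking. Read depth is unknown, so precision is given by the 3 replicates and by exact Clopper-Pearson 95% intervals.

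Summits were compared with tRNA, snoRNA and snRNA genes of Ensembl release 115, and all 612 tRNA genes lay at the same place in RefSeq, which gave symbols and amino acid types. Word uniqueness was counted over both strands of the genome. Class differences were tested with an exact sign-flip permutation over the 3 replicates, adjusted by Benjamini-Hochberg over 9 contrasts, with Python 3.11.15, numpy 2.4.6, pandas 2.3.3 and scipy 1.17.1, and the procedures were tested on simulated data. The members and lists were chosen with earlier results of these data known. Named genes are those at the 15 highest tRNA peaks, the 3 peaks on each side of the optimal limit, the highest gene of each type, the 3 highest with an intron, the tryptophan suppressors, the selenocysteine gene, the highest and lowest of the largest family, the 3 peaks with the most different ranks and the densest clusters. The suppressor sup-34 had no match by symbol and was not analysed here. Further genes named as examples of close pairs were chosen after their values were seen.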

Additional observations from a re-analysis of the deposited data

How the results depend on the processing

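No paired analysis was possible because there was only 1 group of samples, and contrasts between classes of genes were already taken within each replicate. Of 112 values recomputed under another setting for 19 results, 82 stayed within the spread between replicates, the counting interval or 1.5 times a count, and 30 moved further. In 9 of the 112, over 4 results, the difference between classes had the other sign, and each of these 4 differences was smaller than its SD. With against without an intron, 0.229 points, became -1.35 at 2000 highest peaks, -0.437 with unique flanks and -2.85 without replicate 4. Inside against outside a coding gene, -0.0228, became 1.48 at 2000 highest peaks, 0.875 within 100 bp, 0.849 with same-strand hosts alone and 1.75 without replicate 3. Centre minus arm, 1.77, became -0.200 at 500 highest peaks, and X minus autosomes, 1.5, became -0.239 without replicate 3.

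Requiring the summit inside the gene left 252 tRNA peaks, 252 genes with a pooled summit and 12.3% of the 1000 highest peaks. The upper 294 peaks of the optimal list held summits at 123 tRNA genes. The share of tRNA peaks was 30.7% of the 500 and 11.8% of the 2000 highest peaks. Optimal tRNA peaks found in every replicate were 40.4% with summits matched within 50 bp, 52.3% among the 500 and 75.6% among the 2000 highest. Leaving out a replicate gave 68.4% to 84.5%. The median summit of all pooled tRNA peaks, at 33 bp, was 27.0 bp within 100 bp of the gene and 22.0 bp for optimal peaks.

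The difference between clustered and single genes was -17.3 points with summits within 100 bp, -4.78 per distinct sequence and -11.1 with clusters defined at 500 bp. With settings chosen after seeing the data it was -18.6 without genes within 100 bp of another and -21.4 among genes with unique flanks. The difference by repeated sequence was 13.4 points at 500 and 21.1 at 2000 highest peaks, and 60.8 per distinct sequence. Centre minus arm was 4.48 points on autosomes alone. The distance between the highest and lowest amino acid type of at least 10 genes, 32.9 points, was 19.4 at 500 highest peaks (glutamate and valine) and 52.8 per distinct sequence (phenylalanine and lysine). The B box letters were in 50.8% of windows of 100 bp on each side and 16.0% of windows of 25 bp. Over other genes, with settings chosen after seeing the data, the difference at 500 highest peaks was 11.4 points for snoRNA genes, 19.4 for snRNA genes and 24.5 for tRNA pseudogenes, and 35.8 for pseudogenes at 2000. The mean rho between replicates, 0.791, was 0.707 with summits matched within 200 bp. The cause of these shifts was not tested, except that a stricter distance or rank leaves fewer peaks by construction. Depth was not analysed here, so it sets no limit that could be given.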
